A study of Mus musculus with 2 samples.

Results

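The core pluripotency factors described here are the 7 genes Pou5f1, Sox2, Nanog, Sall4, Utf1, Zfp42 and Fbxo15, taken by symbol through GENCODE release M21 from the 43629 genes of the count tables. Each had 1 row in both libraries, and all 7 reached 1 CPM, that is 1 count in every 1000000 of a library, in A and in B. The study profiled mouse embryonic stem (ES) cells carrying a Dgcr8 knockout made by paired CRISPR/Cas9 editing. The cells were of 129/Ola background at passage 7, and their polyadenylated RNA was sequenced as 2 libraries, replicates A and B of 1 group. Dgcr8 is the partner of Drosha in the Microprocessor, which releases microRNA hairpins from primary transcripts. Both titles carry the codes KO2 and d5, which the labels do not explain, so whether the cells were 1 clone is not stated. Whether A and B were separate cultures is not stated either, so their spread may be technical. No wild-type library was analysed here, so the values are levels in knockout cells and not a change caused by the knockout. The libraries held 27872396 counts (A) and 30327146 counts (B), and no p-value below compares conditions. Dgcr8 itself held 1253 counts in A and 1942 in B, which does not check the genotype, since a count over the whole gene includes exons outside an edited stretch.

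Pou5f1 encodes Oct4, a POU-domain factor that binds DNA together with the HMG-box factor Sox2 at paired octamer and SOX sites, and the homeodomain factor Nanog shares many of their target sites. Together these factors hold ES cells in the undifferentiated state and drive each other's transcription. Sall4 is a zinc-finger factor that recruits the NuRD corepressor and acts upstream of Pou5f1, Utf1 is a chromatin-bound factor, and Zfp42 (Rex1) and Fbxo15 are classical markers switched off when ES cells differentiate.

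The promoter windows that carry octamer letters are shown because Oct4 and Sox2 are known to bind such letters. The RefSeq windows (GRCm38.p6) run from 250 bases before to 50 bases after a start site, and 7 windows of 5 core factors were available among 32851 windows of all genes. Both strands were searched for the octamer core ATGCAAA, the full octamer ATGCAAAT that contains it, the SOX core CATTGT, and the pair made of the SOX core, 1 base of any kind and the octamer core. Capitals mark every match, and each window is written on the gene's own strand.
Nanog, chr6:122707239-122707538, plus strand: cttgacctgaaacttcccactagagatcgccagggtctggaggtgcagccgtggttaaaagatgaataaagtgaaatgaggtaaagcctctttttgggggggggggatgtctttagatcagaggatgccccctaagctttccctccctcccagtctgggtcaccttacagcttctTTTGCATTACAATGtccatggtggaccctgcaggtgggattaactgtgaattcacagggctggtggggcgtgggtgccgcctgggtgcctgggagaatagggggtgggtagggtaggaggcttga
Zfp42, chr8:43306960-43307259, minus strand: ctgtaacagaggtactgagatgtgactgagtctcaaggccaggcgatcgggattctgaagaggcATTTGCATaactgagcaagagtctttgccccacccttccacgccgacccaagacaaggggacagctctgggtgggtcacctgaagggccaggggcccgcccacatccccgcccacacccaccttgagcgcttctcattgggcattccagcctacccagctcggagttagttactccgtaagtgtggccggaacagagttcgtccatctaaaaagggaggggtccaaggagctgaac
Sox2, chr3:34649745-34650044, plus strand: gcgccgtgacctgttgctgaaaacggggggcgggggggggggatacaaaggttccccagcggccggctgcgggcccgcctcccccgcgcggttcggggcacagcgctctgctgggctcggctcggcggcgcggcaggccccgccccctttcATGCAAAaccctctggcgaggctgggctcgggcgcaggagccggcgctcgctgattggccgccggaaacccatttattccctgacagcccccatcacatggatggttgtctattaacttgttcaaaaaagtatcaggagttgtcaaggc
The Nanog window held the pair on the opposite strand, starting 75 bases before the start site. The pair occurred in 2 of all 32851 windows (0.00609%), and both were the overlapping windows of Nanog. Zfp42 carried the full octamer ATGCAAAT, found in 1.74% of all windows, on the opposite strand from 186 bases before its start. Sox2 carried the octamer core, found in 4.63% of windows, from 99 bases before the start site of its window. That window ends at base 34650044, upstream of the GENCODE start of Sox2 at base 34650405. The upstream window of Pou5f1 and that of Utf1 held none of these letters. The downstream window of Pou5f1 held the SOX core, as did 12.6% of all windows. The GC box GGGCGG, found in 35.7% of all windows, occurred 4 times in the Utf1 window, and it was also present in the Zfp42, Sox2 and upstream Pou5f1 windows. A match describes the letters in these windows and is not evidence of binding.

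Pou5f1 was the most abundant core factor. The count was 50315 in A and 46765 in B. This amounts to 1805 CPM in A (95% Poisson interval 1789 to 1821) and 1542 CPM in B (1528 to 1556), or 1674 ± 186 CPM (SD, n = 2). By CPM it ranked 32nd of all genes in A and 33rd in B. Scaled by length as RPKM (CPM per 1000 bases of the union of a gene's exons), it reached 803 in A and 686 in B. This placed it at rank 71 of 23449 annotated genes with a count, and at rank 24 of the protein-coding ones. The gene (ENSMUSG00000024406) lies on GRCm38 chromosome 17, 35506018 to 35510772, plus strand, and its longest transcript has 5 exons. Its 6 annotated transcripts cover 2248 exonic bases, whereas the longest has 1362, and over that length the mean was 1229 RPKM in place of 744.

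Sox2 and Nanog stood close to each other. Sox2 is a single-exon gene (ENSMUSG00000074637, chromosome 3, 34650405 to 34652461, plus strand). It held 13189 counts in A and 9501 in B, which is 473 CPM (465 to 481) and 313 CPM (307 to 320). Its RPKM was 230 in A and 152 in B. Nanog (ENSMUSG00000012396, chromosome 6, 122707489 to 122714633, plus strand) was counted 15929 times in A and 13748 times in B. That is 571 CPM (563 to 580) and 453 CPM (446 to 461). Its RPKM was 255 in A and 202 in B. Both genes were higher in A, and the range of one overlapped the range of the other.

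The regulators Sall4 and Utf1 lay at like CPM but far apart per length. Sall4 (ENSMUSG00000027547, chromosome 2, 168748332 to 168767943, minus strand) was counted 8735 times in A and 8988 times in B, or 313 CPM (307 to 320) and 296 CPM (290 to 303). Utf1 (ENSMUSG00000047751, chromosome 7, 139943789 to 139945112, plus strand) was counted 10815 times in A and 7301 times in B, or 388 CPM (381 to 395) and 241 CPM (235 to 246). The exons of Sall4 span 5536 bases and those of Utf1 1227. Per length Sall4 reached 56.6 RPKM in A and 53.5 in B, and Utf1 reached 316 in A and 196 in B. By RPKM the ratio of Utf1 to Sall4 was 5.59 in A and 3.66 in B.

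By CPM, Zfp42 was second to Pou5f1 and Fbxo15 the lowest of the 7, whereas by RPKM Sall4 was lowest. Zfp42 (ENSMUSG00000051176, chromosome 8, 43295063 to 43306980, minus strand) was counted 18628 times in A and 19653 times in B, at 668 CPM (659 to 678) and 648 CPM (639 to 657), with 355 RPKM in A and 345 in B. Fbxo15, the substrate receptor of an SCF ubiquitin ligase, lies on chromosome 18 (ENSMUSG00000034391, 84934782 to 84981473, plus strand). It held 7742 counts in A and 6212 in B, or 278 CPM (272 to 284) and 205 CPM (200 to 210), with 82.7 RPKM in A and 61.0 in B. The exon union of Fbxo15 has 3360 bases and its longest protein-coding transcript 1910. Over that transcript's length its mean was 126 RPKM in place of 71.8. The intervals describe counting error alone: without molecular identifiers, reads need not be independent molecules. In bulk RNA, fewer cells that express a gene and less RNA per cell cannot be told apart.

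**Figure D1:**
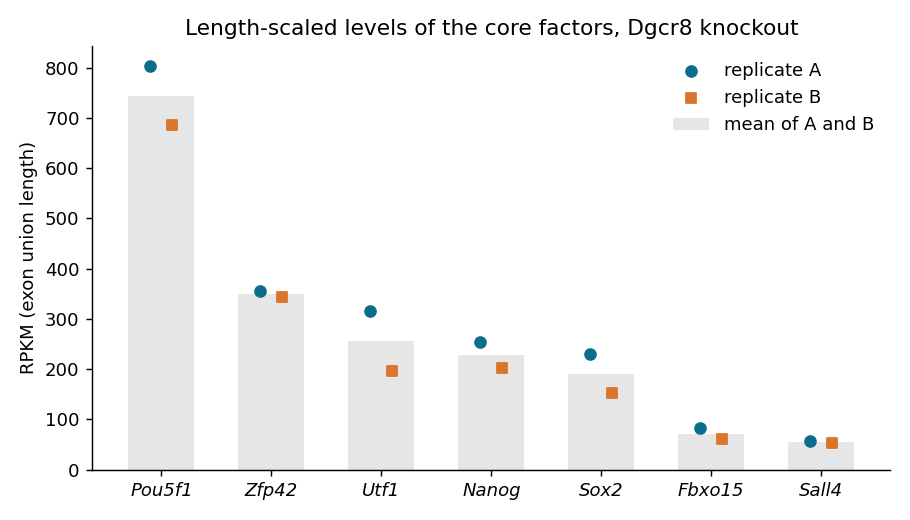
RPKM of the 7 core factors in the Dgcr8 knockout cells. Grey bars are the mean of both libraries, circles replicate A and squares replicate B. Pou5f1 stands above the rest at 803 and 686, and Fbxo15 and Sall4 are lowest.

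The order by mean RPKM was Pou5f1, Zfp42, Utf1, Nanog, Sox2, Fbxo15 and Sall4. In A the order was the same, and in B Nanog (202) and Utf1 (196) changed places. The values of Pou5f1 exceeded those of Zfp42 2.26-fold in A and 1.99-fold in B, with ranges that did not overlap. The range of Zfp42 also lay above that of Utf1. Utf1 against Nanog and Nanog against Sox2 were neighbours whose ranges overlapped, as did those of Utf1 and Sox2. Within each library Nanog was above Sox2 and Utf1 above Sox2, and only Utf1 and Nanog changed order. The range of Sox2 lay above that of Fbxo15. Over the exon union, the lower value of Fbxo15 (61.0) was just above the higher value of Sall4 (56.6). Over the longest protein-coding transcript their means were 126 and 60.1 RPKM. Of the 21 pairs of core factors, 18 had ranges that did not overlap. The SD of RPKM was 2.18% of the mean for Zfp42, 3.95% for Sall4, 11.1% for Pou5f1 and 16.3% for Nanog (n = 2). It was 21.4% for Fbxo15, 28.8% for Sox2 and 33.1% for Utf1, the widest. No test was made between pairs, as 2 values against 2 cannot give an exact two-sided permutation p under 0.333.

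The ratio of a pair of genes within a library does not depend on library size, but by RPKM it depends on the lengths used. Over the longest transcript the mean was 1229 RPKM for Pou5f1, 358 for Zfp42, 232 for Nanog and 191 for Sox2. By RPKM over the exon union, Pou5f1 exceeded Nanog 3.15-fold in A and 3.39-fold in B. It exceeded Sox2 3.49-fold in A and 4.50-fold in B. Nanog exceeded Sox2 1.11-fold in A and 1.33-fold in B. Zfp42 exceeded Sall4 6.28-fold in A and 6.44-fold in B, the pair in which both genes also differed least between the libraries.

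**Figure D2:**
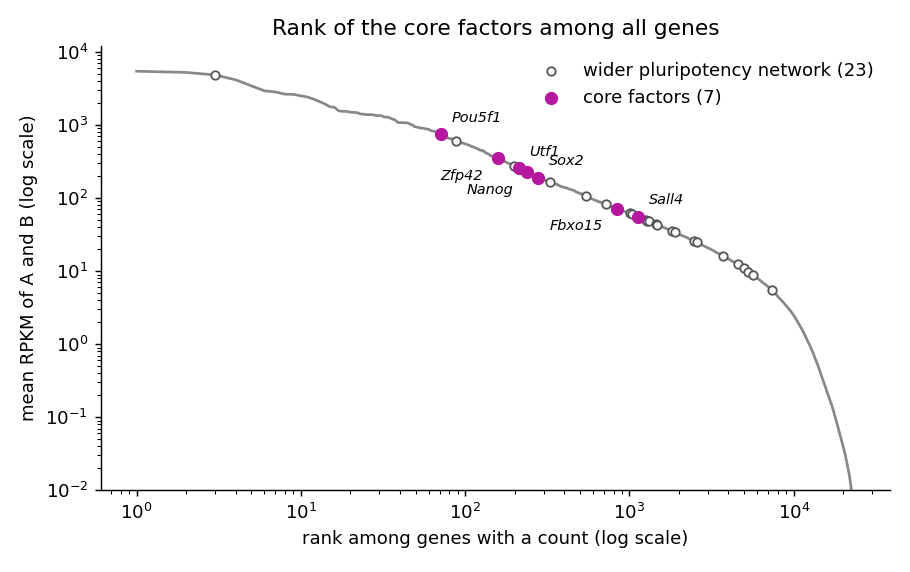
Mean RPKM of both libraries against rank for all annotated genes with a count, both axes logarithmic. Filled points are the 7 core factors, at ranks 71 to 1123, and open points the 23 genes of the wider pluripotency network.

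All 7 genes reached 100 CPM in both libraries, as did 8.42% of annotated genes with a count (56.8% of those genes reached 1 CPM in both). The median RPKM of the 7 was 229, against 1.31 over all annotated genes with a count. Over the 13320 of them at 1 CPM or more in both libraries it was 6.55. By RPKM the ranks were 158 for Zfp42, 212 for Utf1, 239 for Nanog, 278 for Sox2, 839 for Fbxo15 and 1123 for Sall4. Even the lowest, Sall4, was in the top 4.79% of annotated genes with a count. Among the 13320 at 1 CPM or more in both libraries its rank was also 1123. Together the 7 genes took 0.450% of the counts of A (95% Clopper-Pearson interval 0.447 to 0.452) and 0.370% of those of B (0.368 to 0.372). Pou5f1 alone made up 40.1% of their counts in A and 41.7% in B.

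Because each gene has only 2 values, likeness to other genes could be measured by distance alone, over log2(RPKM + 0.5) in A and B. The nearest protein-coding gene was Eif5a for Pou5f1 (distance 0.0956), Cct2 for Zfp42 (0.0383), Rps2 for Utf1 (0.0386) and Bex3 for Nanog (0.0645). It was Cyc1 for Sox2 (0.129), Ndufv2 for Fbxo15 (0.0265) and Stoml2 for Sall4 (0.0302). Only 2 coding genes lay within 0.25 of Pou5f1, against 109 within that distance of Sall4. As the distance uses levels alone, these counts only restate how many genes lie near each level. Ribosomal protein genes such as Rps2 have many processed pseudogenes, so the level of Rps2 is uncertain.

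The libraries were next compared with each other to set their differences beside counting noise. The test was an exact two-sided binomial test of both counts, with library sizes scaled by TMM and p-values adjusted by the Benjamini-Hochberg method over the 14583 genes that reached 1 CPM in at least 1 of the libraries. It compares these libraries with counting noise and not conditions. Of the 7 core factors 6 were called at an adjusted p under 0.05, against 76.5% of all genes tested. Such a call was thus common between these libraries. With that scaling Utf1 alone differed at least 1.5-fold, where 37.9% of the tested genes were called and passed that fold. With TMM scaling 5 core factors were called higher in A and 1 higher in B, beside 38.2% and 38.3% of all tested genes. With library totals all 7 were higher in A, where 77.2% of all genes were called, 44.0% higher in A and 33.2% higher in B. After correction for GC content and transcript length 3 were higher in each library, where 70.1% of all genes were called, 33.9% higher in A and 36.2% higher in B. The 1.5-fold call of Utf1 held with TMM scaling and library totals. With DESeq2 size factors its log2 ratio of 0.58 was just under that fold, and after the correction no core factor reached it. With library totals Sox2 passed it as well, at a log2 ratio of 0.59.

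With TMM scaling Utf1 and Sox2 had the largest ratios of the 7, whereas after the GC and length correction Fbxo15 (0.58) and Pou5f1 (-0.47) had. Utf1 was at 376 CPM in A and 249 in B after TMM scaling, a log2 ratio of A over B of 0.59 (adjusted p = 2.3e-165, exact binomial test). Sox2 followed at 0.50 (adjusted p = 4.61e-148, exact binomial test), with 458 CPM in A and 324 in B. Fbxo15 had a log2 ratio of 0.35, Nanog 0.24 and Pou5f1 0.13, all called. Zfp42 was called with a log2 ratio of -0.048 (adjusted p = 0.00162, exact binomial test), and Sall4 was not called at -0.012 (adjusted p = 0.615, exact binomial test). Over the 2328 genes with a mean of 100 CPM or more, the log2 ratio had an SD of 0.54 and 92.0% were called. The ratio of Utf1 was larger in size than those of 68.6% of the 9537 genes with a mean of 10 CPM or more, and that of Sall4 larger than those of 1.58%. The median log2 ratio of the 7 genes was 0.24, against 0.014 over all tested genes and -0.16 over those at 100 CPM or more. With library totals it was 0.33, against 0.10 over all tested genes, and after the correction -7.07e-04, against -0.0095.

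**Figure D3:**
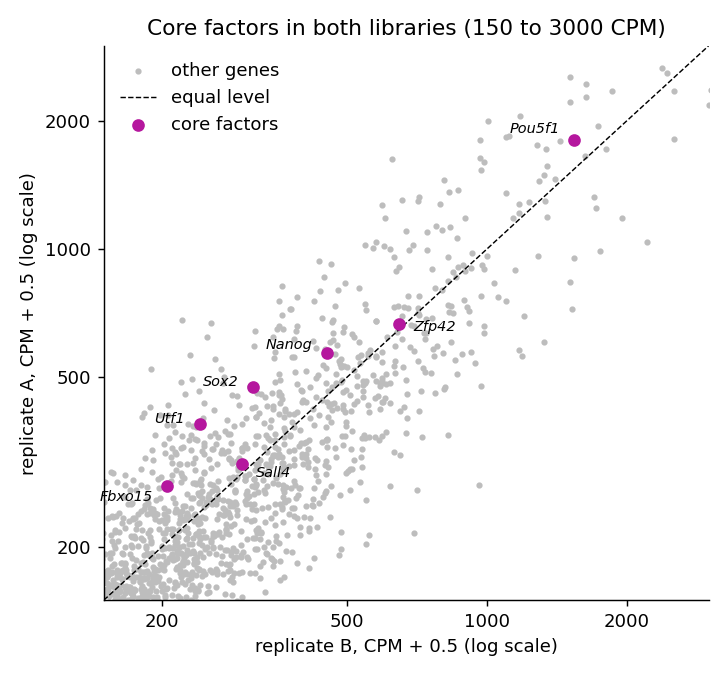
Replicate A against replicate B in CPM + 0.5, both axes logarithmic and limited to the range around the core factors, each grey point 1 gene. Zfp42 and Sall4 lie near the line of equal level, and Utf1 and Sox2 lie farthest above it among the core factors.

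GC content moved with the difference between the libraries. Among genes at a mean of 10 CPM or more with a known GC content, the median log2 ratio of A over B was computed in 5 bins of nearly equal size by GC content of the longest transcript. It was -0.46 in bin 1 (lowest GC content) and 0.37 in bin 5 (highest). Utf1 (63.5% GC) and Pou5f1 (57.6%) were in bin 5, Sall4 (53.8%) in bin 4, Sox2 (50.5%) in bin 3, Zfp42 (46.4%) and Nanog (45.8%) in bin 2 and Fbxo15 (43.4%) in bin 1. After correction for GC content and transcript length, the ratio of Utf1 turned to -0.32 and that of Pou5f1 to -0.47. The uncorrected ratio of Utf1 was above the median of bin 5 but below the fitted trend at its own GC content and length, which was 0.91. Those of Sox2 (0.34), Nanog (0.34) and Fbxo15 (0.58) stayed higher in A. Zfp42 lay at -7.07e-04 and was no longer called (adjusted p = 0.978, exact binomial test), and Sall4 at -0.087 was called (adjusted p = 0.000135, exact binomial test). The sign of the difference in Utf1 and Pou5f1 therefore depended on this correction. Utf1 had a higher GC content than 99.3% of tested genes, so its trend value comes from the edge of the fit. The parts of GC content and of length in the correction were not separated. Sall4 and Zfp42 stayed within 0.1 of equality under each scaling and correction tried.

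**Figure D4:**
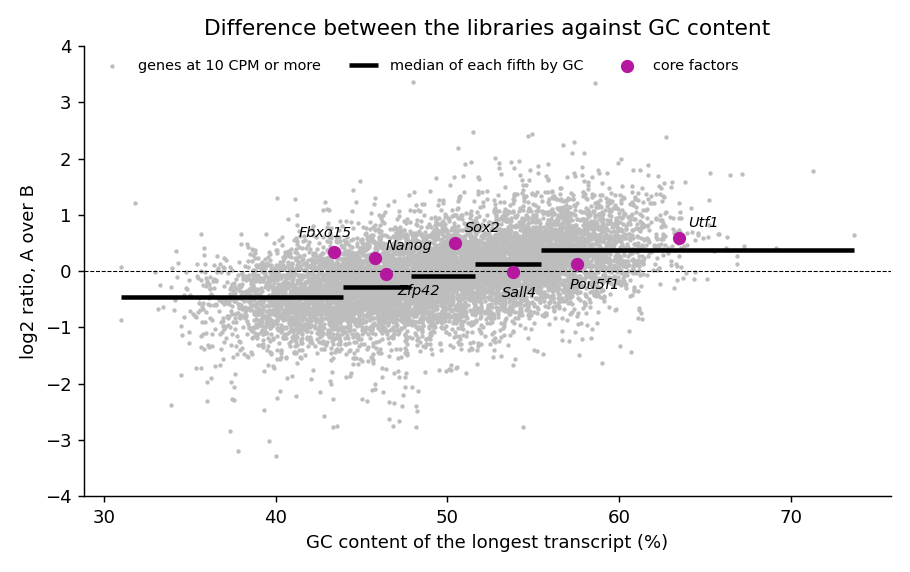
Log2 ratio of A over B after TMM scaling against the GC content of the longest transcript, for genes with a mean of 10 CPM or more. Black lines are the medians of 5 bins by GC content, from -0.46 to 0.37. Fbxo15, Nanog, Sox2, Zfp42 and Utf1 lie above the median of their bin, and Pou5f1 and Sall4 below that of their own.

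Pou5f1 and Zfp42 outweighed their families. Of 14 other POU genes measured, 7 reached 1 CPM in both libraries. The median over the 14 was 0.609 RPKM. Pou5f1 made up 98.2% of the summed RPKM of the 15 genes in A and 96.1% in B. The highest paralogs were Pou2f1 (Oct1), a broadly expressed POU factor, at 3.95 RPKM in A and 8.49 in B, and Pou4f2 (Brn3b), a factor of retinal ganglion cells, at 2.51 and 8.10. Pou5f2 had 2 counts in A and 0 in B. In the family of Zfp42, Yy1, the gene from which Zfp42 arose by retroposition, reached 11.4 RPKM in A and 15.3 in B. Yy2 was counted 0 times in A and in B, and a count of 0 leaves room for a level of up to 0.108 CPM in A and 0.0989 CPM in B.

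Sox2 and Sall4 had company. Of 18 other SOX genes, 7 reached 1 CPM in both libraries, and Sox2 made up 76.4% of the summed RPKM of the 19 genes in A and 78.2% in B. Sox15, which can bind DNA with Oct4 in ES cells, reached 27.1 RPKM in A and 9.65 in B. Sox12 reached 21.8 and 13.5. Sall1, a relative that is also expressed in ES cells, stood at 37.6 RPKM in A and 54.0 in B. Sall4 was above it in A (56.6) and level with it in B (53.5), so their ranges overlapped. Sall4 therefore held 58.2% of the summed SALL signal in A and 48.8% in B, with Sall2 at 2.17 RPKM in A and 0.971 in B.

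**Figure D5:**
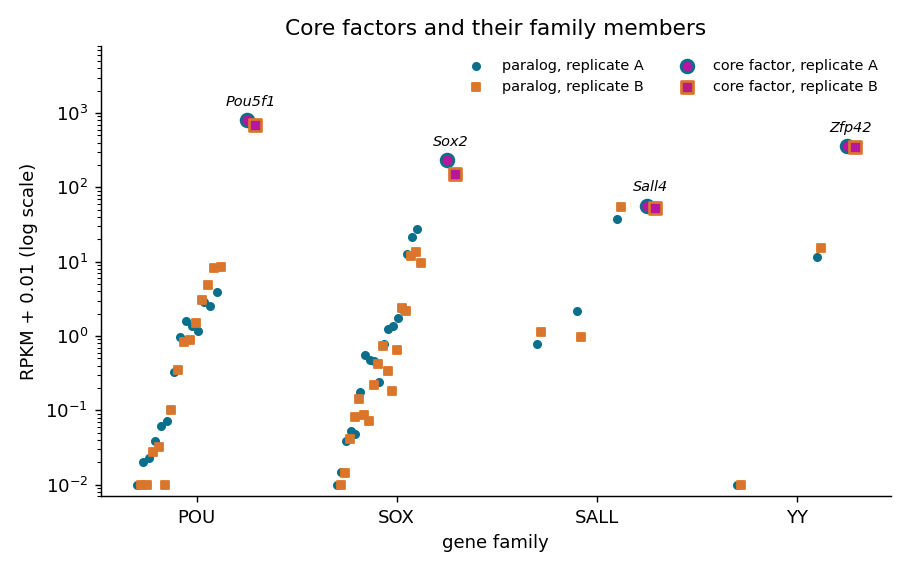
RPKM + 0.01 on a logarithmic axis for the genes of 4 families. Small circles and squares are paralogs in replicates A and B, and large symbols the core factor of that family. Pou5f1, Sox2 and Zfp42 stand above all their paralogs in both libraries, whereas Sall4 and Sall1 meet.

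The wider pluripotency network was present throughout. All 23 listed genes reached 1 CPM in both libraries and 14 reached 100 CPM, with a list median of 43.7 RPKM. Of all annotated genes with a count, 56.8% reached 1 CPM in both libraries and 8.42% reached 100 CPM. Of the 23, 8 lay above Sall4 by mean RPKM and 1 lay above Pou5f1. That gene was Dppa5a, an RNA-binding ES cell marker, at 6869 RPKM in A and 2855 in B. Trim28, a corepressor of retroviral elements, reached 624 and 588, and the Nodal coreceptor gene Tdgf1 reached 296 and 258. Klf2, a factor of the naive state, stood at 231 and 102, and the nuclear receptor gene Esrrb at 105 and 106. The lowest by the mean of both libraries were Prdm14, a repressor of FGF signalling, at 10.7 and 7.24, and Otx2, a factor of the formative state, at 5.92 and 5.07. In B alone Dppa3, a germline and ES cell marker, was the lowest, at 15.1 in A and 4.66 in B. With TMM scaling 8 of the 23 were called higher in A and 13 higher in B, with a list median log2 ratio of -0.16, where 38.2% and 38.3% of all tested genes were so called. With library totals it was 10 and 12 with a median of -0.070 (44.0% and 33.2% of all genes), and after the GC and length correction 10 and 13 with a median of -0.25 (33.9% and 36.2%).

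Partners and targets of the core factors were measured as well. Spp1, which encodes osteopontin and has an Oct4-bound enhancer, reached 431 RPKM in A and 514 in B. Fgf4, a textbook target of Oct4 and Sox2, reached 93.9 and 59.6. Lefty1, the remaining gene of that list, which encodes a Nodal antagonist, stood at 91.8 RPKM in A and 8.25 in B, a log2 ratio of 3.34. All 11 listed NuRD genes, partners of Sall4, passed 1 CPM in A and in B, as did 56.8% of annotated genes with a count. The median of the NuRD genes was 39.2 RPKM. The histone-binding subunit gene Rbbp7 led them with 165 RPKM in A and 186 in B, followed by Mbd3, the methyl-binding-domain subunit, with 111 and 83.5. The SCF subunits that pair with F-box proteins were present too, with the adaptor gene Skp1a at 205 and 162 and the scaffold gene Cul1 at 31.3 and 43.6.

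Markers of other cell types were low beside the core factors, whose CPM summed to 4497 in A and 3699 in B. Of all annotated genes with a count, 56.8% reached 1 CPM in both libraries, and the median gene had a mean of 3.45 CPM. Of 6 primitive endoderm markers 2 reached 1 CPM in both libraries, and their CPM summed to 11.2 in A and 22.8 in B, with Gata4 the highest by mean RPKM at 1.82 and 1.26. In B, Dab2, another marker of that list, was above it at 1.64 RPKM, against 0.323 in A. Of 5 trophoblast markers 2 did so, with sums of 7.75 and 7.22 CPM and Eomes highest at 1.13 and 0.968 RPKM. Of 4 neuroectoderm markers 3 did so, with sums of 43.7 and 41.4 CPM, of which Nes gave 34.9 and 36.6. Of 6 fibroblast markers 4 did so, with sums of 47.9 and 30.1 CPM, and Thy1 highest at 10.5 and 7.31 RPKM. Some markers were thus above the median gene, among them Nes and Thy1 (31.4 CPM in A and 21.9 in B). Col1a2 had 2 and 7 counts and Col3a1 1 and 5, in A and B. The endoderm sum was higher in B and the fibroblast sum higher in A. Their part in the differences of the core factors was not tested.

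Reads of these genes could have gone to copies or overlapping genes. No transcript of another gene matched Pou5f1, Sox2, Utf1 or Fbxo15 at 90% identity over 200 bases. The antisense gene Gm19553 overlaps 317 exonic bases of Pou5f1 and held 15 counts in A and 22 in B. Nanog-ps1, a processed pseudogene on chromosome X, matched Nanog at 97.6% over 245 bases and held 9 counts in A and 4 in B. A further 51 genes matched Nanog between bases 1176 and 1422 of its longest transcript, inside its 3′ UTR (bases 1134 to 2211). Whether they also matched it elsewhere was not examined. Of the 48 such genes with a row, 36 held 10 or more counts in A or B. The 3′ UTR of mouse Nanog is known to carry a repeat element, and how reads from it were assigned is not given in the sources used here. Gm14261 overlaps 526 exonic bases of Sall4 on the opposite strand and held 4 counts in each library. Timm21 lies within the span of Fbxo15 on the opposite strand with 0 shared exonic bases, and held 215 counts in A and 433 in B. Sox2ot, a noncoding gene whose span holds Sox2 on the same strand with 0 shared exonic bases, was not analysed here. Zfp42-ps1, which matched Zfp42 at 98.1% over 266 bases, was not analysed here.

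As the cells are labelled Dgcr8 knockout, sites for microRNAs were looked for in the longest protein-coding transcript of each core factor. Sites complementary to bases 2 to 8 were sought for miR-134-5p (CAGTCAC), miR-296-5p (GGGGCCC) and miR-470-5p (TCCAAGA), which are known to act on Nanog, Pou5f1 and Sox2 in mouse, for miR-294-3p (AGCACTT) of the ES cell cluster, and for let-7a-5p (CTACCTC). No such site was present in Pou5f1, Sox2, Nanog, Utf1 or Zfp42, which says only that these letters are not in their transcripts. Sall4 held 4 sites for let-7a-5p, a microRNA that accumulates as ES cells differentiate, and they are shown with the seed and the matching letters in capitals.
let-7a-5p, RNA: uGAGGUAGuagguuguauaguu
Sall4 site at transcript base 1055: acaagccaagCTACCTCatgccagcgt
Sall4 site at transcript base 1178: cagtgccctgCTACCTCagactccggg
Sall4 site at transcript base 1646: ttctctagggCTACCTCaaaagctcac
Sall4 site at transcript base 4458: tttaatttatCTACCTCaattatcttt
The first 3 lie in the coding sequence (chr2:168756030-168756036, chr2:168755907-168755913 and chr2:168755439-168755445, minus strand) and the last in the 3′ UTR (chr2:168748941-168748947). Among the 11980 coding genes that reached 1 CPM in A and in B, 24.8% held at least 1 let-7a-5p site anywhere in the transcript. Such a site was in the coding sequence of 14.8% of them and in the 3′ UTR of 10.6%. The share of genes with 4 sites was not computed. Sall4 also held 2 sites for miR-470-5p and 1 for miR-296-5p, and 31.2% and 26.5% of those genes held at least 1 such site. Fbxo15 held 1 let-7a-5p site and 1 miR-470-5p site. At 5073 bases the Sall4 transcript was the longest of the 7, and the shares are not matched for length.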

How the data were processed

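The authors deposited raw counts for each Ensembl gene in a file per library. Tools listed in the submitters' processing notes are featureCounts 1.4.5-p1 and STAR 2.4.2a, and mm10 is the listed build. Libraries were reverse-stranded TruSeq, per the labels. Annotation release, strand setting and treatment of multiply mapped reads were not given in the sources used here.

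GENCODE M21 (GRCm38, which mm10 denotes) gave names, positions and lengths for 42548 of 43629 identifiers, holding 99.8% of each library's counts. CPM and RPKM were computed here from those counts. TMM factors (edgeR 4.0.16, R 4.3.3) were 1.03 for A and 0.968 for B. Log2 ratios are of TMM-scaled CPM + 0.5. The binomial test was tried on simulated counts with counting noise alone, which lack the wider spread seen between these libraries. The lowess correction for GC content and length (statsmodels 0.14.6) was tried on a simulated linear GC trend without a length trend. Copies were sought with BLAST 2.17.0. As alternatives, size factors from DESeq2 1.42.0 and plain totals were tried, with other filters, pseudocounts and lengths, and each library alone.

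The members and gene lists were chosen with earlier results of these data known. Named from each list are the 2 genes of highest mean RPKM, from the network also the next 3 and the lowest 2, from each marker list the highest. Copies or overlapping genes were to be named from 10 counts, but those matching Nanog inside its 3′ UTR are given as a count. Pou5f2, Yy2, Dab2, Dppa3, Lefty1, Col1a2, Col3a1, Nanog-ps1, Gm14261 and Zfp42-ps1 were named after their values were seen. The labels give no batch.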

Additional observations from a re-analysis of the deposited data

How the results depend on the processing

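All 7 genes stayed at or above 10 and 100 CPM in both libraries, whereas 14 of the 23 network genes reached 100 CPM. Of all annotated genes with a count, 8.42% reached 100 CPM in both libraries. With a fold of at least 1.5 added to the call, 1 core factor and 5527 genes were called in place of 6 and 11155. These gene counts are 37.9% and 76.5% of the 14583 genes tested. The other settings called 6 or 7 core factors and between 8437 (of 10004 tested) and 11519 genes (of 23698 tested). With library totals in place of TMM, the log2 ratio of A over B turned to 0.080 for Sall4 and 0.044 for Zfp42. Corrected for GC content and transcript length it turned to -0.47 for Pou5f1 and -0.32 for Utf1. The cause of these turns was not tested. The order by RPKM was the same with the longest and the longest protein-coding transcript as lengths. By CPM, an alternative chosen after seeing the data, 2 of the 7 kept their place. For 6 of the 7 genes the libraries differed by more than counting error with TMM scaling, beside 76.5% of all tested genes. Of genes with a mean of 100 CPM or more, 92.0% were called. For Sall4 no difference was called. After the correction Zfp42 was the gene not called, where 70.1% of all genes were called. No paired analysis was possible because the series holds 1 group.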
